A study of Mus musculus with 16 samples.

Results

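Axon guidance ligands, their receptors and the growth cone proteins downstream of them were followed in RNA-Seq of mouse cerebellum. The members were the protein coding genes of 11 families taken by symbol, namely semaphorins, ephrins, Slits, netrins and netrin-G ligands, the plexin, neuropilin, Eph, Robo and Unc5/Dcc receptors, and the intracellular CRMP proteins with Gap43. Of the 17074 genes with a value, 74 were members, comprising 34 ligands, 34 receptors and 6 intracellular proteins. A further 3 annotated genes with matching symbols (Efna4, Ntn3 and Ntn5) were not analysed here. Poly(A) RNA came from cerebellum of female C57BL/6 mice, with 4 libraries in each of 4 groups. The 18M-KO group was Acsl6-/- at 18 months, 2M-KO was Acsl6-/- at 2 months, 18M-WT was control at 18 months and 2M-WT was control at 2 months, and the mice of 18 months are labelled as naturally aged. ACSL6 is an acyl-CoA synthetase needed for brain docosahexaenoic acid (DHA), and the Acsl6-/- line was made by crossing floxed Acsl6 mice to CMV-Cre, which deletes the gene in the germline and so in every cell. Whether the controls carried the floxed allele is not given in the sources used here. The questions were whether these families differ with age within a genotype, with genotype within an age, and whether the genotype difference changes with age.

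Guidance cues are secreted or membrane-bound proteins that attract or repel growing axons. Semaphorins signal through plexins, in the secreted class with neuropilins as coreceptors. Ephrins bind Eph receptor kinases on touching cells and signal in both directions, Slits repel through Robo receptors, and netrins attract through Dcc or repel through Unc5 receptors. CRMP proteins (the Dpysl genes and Crmp1) bind tubulin and carry semaphorin signals to the cytoskeleton, and GAP43 is a membrane protein of growth cones and presynaptic terminals. In the cerebellum these cues guide granule cell migration, parallel fibers and climbing fibers during development, and many stay on in adult neurons, where they act at synapses.

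The values are normalized counts, that is, read counts per gene divided by 1 size factor per library, and the number of reads behind a library ran from 16953548 to 27569428. Acsl6 was at 2178 ± 75.7 normalized counts in 18M-KO, against 5970 ± 112 in 18M-WT, and at 2293 ± 36.1 in 2M-KO, against 6753 ± 309 in 2M-WT (SD, n = 4 each), so a part of the Acsl6 reads remained in Acsl6-/- mice. Checked against the label cerebellum, no marker of granule cells, Purkinje cells, interneurons, Bergmann glia or oligodendrocytes was at 0 in any library. Of 19 genes listed for brainstem and deep nuclei, 14 had no row and the other 5 were also above 0 in every library. Low genes were filtered before deposit, and each library held only 0 to 10 genes at 0. Values above 0 therefore could not test the label. Summed levels were 142297 to 204790 for the 14 granule cell markers, against 797 to 1637 for those 5 genes. Ttr, the main transcript of choroid plexus, exceeded 5000 in 5 libraries (18M-KO replicate 1, 18M-WT replicates 3 and 4, 2M-WT replicates 1 and 4). The library 18M-WT replicate 3 also stood apart in Gm42418, at 686717. The labels do not say that each library is 1 mouse, so p values measure the spread between these libraries.

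All 74 members passed the filter of a mean of at least 10 normalized counts, and levels between genes were compared per kilobase of the longest annotated transcript. Gap43 was the highest member at 1910 normalized counts per kilobase, followed by Sema7a (1453), a lipid-anchored semaphorin that binds plexin C1, and Crmp1 (1257). Among ligands, Efnb3 led the ephrins at 349, Ntn1 the netrins at 284, Ntng2 the netrin-G pair at 86.6 and Slit3 the Slits at 61.5 per kilobase. Among receptors, Plxnb2, which binds Sema4c and Sema4g and is needed for granule cell precursors in mice, led the plexins at 587. Unc5b (403), Epha8 (282), Robo2 (78.3) and Nrp2 (46.4 per kilobase) led theirs. Dcc, the attractive netrin receptor, was at only 4.46 per kilobase and Robo3, a receptor of crossing axons, at 2.95, whereas the repulsive netrin receptors Unc5a and Unc5c were at 243 and 224 per kilobase. Slit1 (8.1) and Slit2 (12.5 per kilobase) were also low. The median member was at 91.8 normalized counts per kilobase, against 130 over all genes tested with a known length. Without division by length the order was reversed, at 592 normalized counts for the median member, against 390 over those genes.

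**Figure D1:**
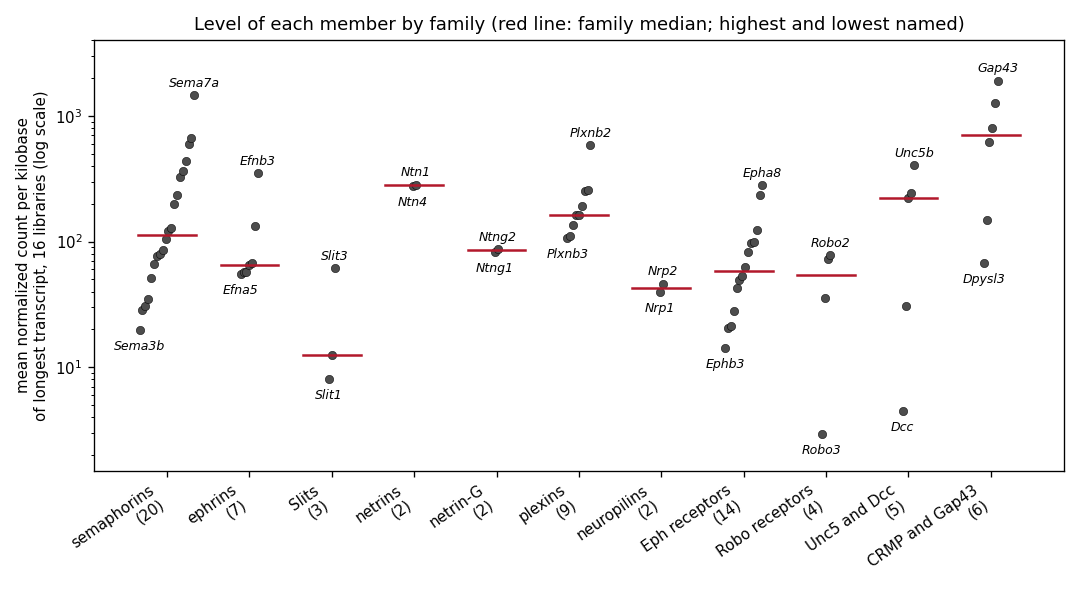
Mean normalized count per kilobase of longest transcript over the 16 libraries (log axis) for each of the 74 members (points), by family, with the family median as a red line. The family median is highest for CRMP and Gap43 (710.0) and lowest for the Slits (12.5).

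Age moved many members. In Acsl6-/- mice 26 of 74 members were called at an adjusted p under 0.05 (11 higher and 15 lower at 18 months), or 35.1% of members, and over all genes the share was 23.2% (11.6% higher and 11.6% lower). In control mice 31 members were called (12 higher and 19 lower), or 41.9% of members, and over all genes the share was 31.3% (15.3% higher and 16% lower). Among genes with a mean of at least 50, 27 members were called in Acsl6-/- mice, where the share over all genes was 27.7%. In control mice 32 were called under that filter, where the share was 35.9%. The median log2 fold change of the members was -0.04 in each genotype, and that of all genes was within 0.01 of 0. Both comparisons called 20 of the members in the same direction, which was 76.9% of the Acsl6-/- list and 64.5% of the control list. Over all genes, which include these members, the shared calls were 70.2% and 52.1% of the lists, and the age comparisons share no library. Without the 5 libraries high in Ttr, 24 members were called in Acsl6-/- mice, where the share over all genes was 21.4%, and 21 in control mice, where it was 16.3%. This setting drops 2 of 4 libraries in 18M-WT, 2 of 4 in 2M-WT and 1 of 4 in 18M-KO. A call lost under it can therefore reflect fewer libraries, and the 2 cannot be told apart.

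Several lists of cell type markers moved with age too. Of 14 granule cell markers, 11 fell in Acsl6-/- mice and 13 in control mice, and their summed level was 142297 to 163008 in 18M-KO, against 180625 to 191867 in 2M-KO, and 142398 to 147657 in 18M-WT, against 179296 to 204790 in 2M-WT. All 12 microglia markers rose in both genotypes, with a summed level of 5670 to 7564 in 18M-KO, against 2591 to 3078 in 2M-KO, and 4734 to 5369 in 18M-WT, against 2086 to 2622 in 2M-WT. Of 14 oligodendrocyte markers, 9 fell in Acsl6-/- mice, where the sum was 79751 to 100844 in 18M-KO, against 109563 to 139358 in 2M-KO. In control mice 3 of them fell and 1 rose, with sums of 77929 to 118626 in 18M-WT, against 98868 to 113750 in 2M-WT. Of 10 markers of meninges and fibroblasts, 1 rose in Acsl6-/- mice, with sums of 2682 to 5130 in 18M-KO, against 3096 to 4531 in 2M-KO. In control mice 5 of these rose, with sums of 3561 to 5435 in 18M-WT, against 2966 to 3434 in 2M-WT. Of 12 markers of astrocytes and Bergmann glia, 4 rose and 3 fell in Acsl6-/- mice and 5 rose and 2 fell in control mice. Of 14 Purkinje cell markers, 1 rose and 2 fell in Acsl6-/- mice and 1 rose and 1 fell in control mice. None of these markers was at 0 in any library. All 12 choroid plexus markers had a positive change with age in both genotypes, and none was called. Their median log2 fold change was 1.03 in Acsl6-/- and 0.54 in control mice. In whole tissue, fewer cells of a type and less RNA per cell cannot be told apart, and the part of these markers in the members' changes was not tested.

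**Figure D2:**
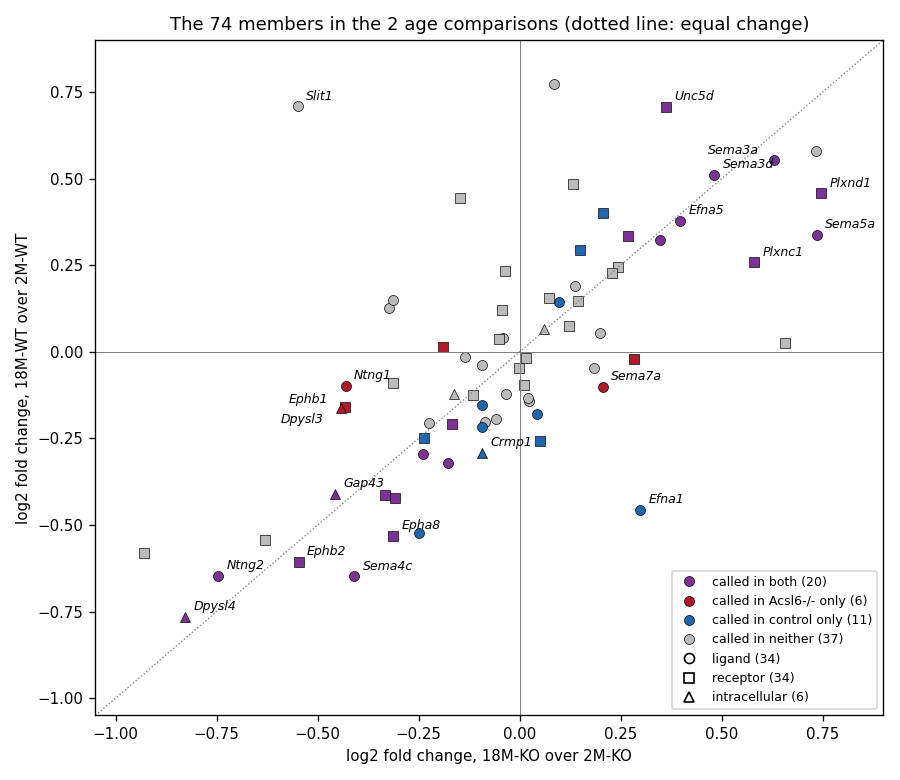
Log2 fold change of each member with age in Acsl6-/- mice (18M-KO over 2M-KO, horizontal) and in control mice (18M-WT over 2M-WT, vertical), with shape for role and color for the calls. Of the 74 members, 55 have the same sign in both, against 13012 of 17042 over all genes. The 20 called in both lie in the upper right (9) or lower left (11).

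Among ligands, every called class 3 semaphorin (the secreted class) was higher with age and every called class 4 semaphorin (a transmembrane class) was lower. Of 7 class 3 members, 3 rose in each genotype (Sema3a, Sema3c and Sema3d) and none fell, with a median log2 fold change of 0.35 in Acsl6-/- and 0.32 in control mice. Of 6 class 4 members, 2 fell in Acsl6-/- mice and 4 in control mice, and none rose, and the classes themselves were not tested. Over all genes 11.6% rose and 11.6% fell in Acsl6-/- mice, and 15.3% rose and 16% fell in control mice. Sema3a, a repellent that signals through neuropilin 1 and class A plexins (chromosome 5, 13125414 to 13602565 on the plus strand, GRCm38), was at 611, 763, 626 and 546 normalized counts in 18M-KO, against 375, 488, 385 and 392 in 2M-KO. Sema3a in control mice was at 625, 566, 597 and 542 normalized counts in 18M-WT, against 433, 381, 389.6 and 382 in 2M-WT. In both genotypes every library of 18 months lay above every library of 2 months. The change was 1.55-fold in Acsl6-/- mice (log2 fold change 0.63 ± 0.09 SE, adjusted p = 0.000107) and 1.47-fold in control mice (log2 fold change 0.55 ± 0.09 SE, adjusted p = 0.000235). Sema3d, another secreted class 3 member with fewer reads, was at 244, 262, 177 and 179 normalized counts in 18M-KO, against 163, 155, 126 and 166 in 2M-KO. Sema3d in control mice was at 183, 197, 221 and 218 normalized counts in 18M-WT, against 126, 162, 122 and 168 in 2M-WT, and it rose in both (log2 fold change 0.48 ± 0.14 SE, adjusted p = 0.0186 in Acsl6-/-, and 0.51, adjusted p = 0.0102 in control mice). Without the libraries high in Ttr Sema3d kept a log2 fold change of 0.42 in Acsl6-/- (adjusted p = 0.0671) and 0.43 in control mice (adjusted p = 0.163). The Acsl6-/- call was also lost without any one of 18M-KO replicates 1 and 2 and 2M-KO replicate 3, with log2 fold changes of 0.38 to 0.42 and an adjusted p of 0.0592 to 0.0748. Sema3c rose by 0.35 in Acsl6-/- and 0.32 in control mice on the log2 scale, near the threshold in both (adjusted p = 0.0407 and 0.045).

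Sema5a, a transmembrane semaphorin with thrombospondin repeats (chromosome 15, 32244810 to 32696341 on the plus strand), was among the members that rose most. Sema5a in Acsl6-/- mice was at 1619, 1570.2, 1911 and 1535 normalized counts in 18M-KO, against 1075, 1022, 867 and 1016 in 2M-KO. Sema5a in control mice was at 1647, 1559.8, 1651 and 1505 normalized counts in 18M-WT, against 1245, 1405, 1338 and 1066 in 2M-WT. The ages did not overlap in either genotype, and the rise was 1.67-fold in Acsl6-/- (log2 fold change 0.74 ± 0.08 SE, adjusted p = 6.64e-06) and 1.26-fold in control mice (log2 fold change 0.34 ± 0.08 SE, adjusted p = 0.00461). Without the libraries high in Ttr the control value was 0.23 (adjusted p = 0.166). The difference of the 2 rises, 0.40, was not called (adjusted p = 0.247).

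Sema4c, a ligand of plexin B2 (chromosome 1, 36548639 to 36558349 on the minus strand), showed the smallest p of any member in control mice. Sema4c in Acsl6-/- mice was at 636, 688, 584 and 687 normalized counts in 18M-KO, against 802, 909, 921 and 814 in 2M-KO. Sema4c in control mice was at 612, 639, 595 and 597 normalized counts in 18M-WT, against 975, 877, 955 and 1031 in 2M-WT. The aged libraries lay below the young ones without overlap, at 0.753 of the young level in Acsl6-/- (log2 fold change -0.41 ± 0.06 SE, adjusted p = 0.000176) and 0.638 in control mice (log2 fold change -0.65 ± 0.06 SE, adjusted p = 1.23e-06). Sema4g, another class 4 ligand of plexin B2, was at 2401, 2582, 2553 and 2552 normalized counts in 18M-KO, against 2825, 2771, 2833 and 2985 in 2M-KO. Sema4g in control mice was at 2321, 2635, 2292 and 2449 normalized counts in 18M-WT, against 2946, 2946, 3047 and 3162 in 2M-WT. The ages did not overlap for Sema4g either, and its log2 fold change was -0.18 (adjusted p = 0.00667) in Acsl6-/- and -0.32 (adjusted p = 3.57e-05) in control mice. Their receptor Plxnb2 did not pass the test (log2 fold change -0.12, adjusted p = 0.0853 in Acsl6-/- and -0.12, adjusted p = 0.0542 in control mice).

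Of the 4 transmembrane class 6 semaphorins, 1 was called higher and 1 lower in control mice, and 1 was called lower in Acsl6-/- mice. Sema6b, a repellent that binds plexin A4, was at 1322, 1021, 1234 and 1259 normalized counts in 18M-KO, against 1426, 1408, 1460.4 and 1387 in 2M-KO. Sema6b in control mice was at 1242, 1369.8, 1202 and 1288 normalized counts in 18M-WT, against 1532, 1607, 1532 and 1586 in 2M-WT, and it fell in both (log2 fold change -0.24, adjusted p = 0.00876 in Acsl6-/-, -0.30, adjusted p = 0.00141 in control mice), although without the libraries high in Ttr the control value of -0.27 missed the threshold (adjusted p = 0.0503). Sema6d, a ligand of plexin A1 and the most abundant class 6 member per kilobase, was at 4354, 4381, 4391 and 4702 normalized counts in 18M-KO, against 3958, 4368, 4280.2 and 4055 in 2M-KO. Sema6d in control mice was at 4783, 4268, 4406 and 4285 normalized counts in 18M-WT, against 4097, 4078, 3921 and 3954 in 2M-WT, where the ages did not overlap. It rose in control mice by 0.14 on the log2 scale (adjusted p = 0.0153) and had a log2 fold change of 0.10 in Acsl6-/- mice (adjusted p = 0.105). The control call was lost without 18M-WT replicate 1 (log2 fold change 0.11, adjusted p = 0.0649) and without the libraries high in Ttr (log2 fold change 0.18, adjusted p = 0.0825). Sema7a was at 5379, 5004, 4674 and 4759 normalized counts in 18M-KO, against 4275, 4249, 4288 and 4333 in 2M-KO, without overlap. Sema7a in control mice was at 4855, 5437, 4584 and 4297 normalized counts in 18M-WT, against 5332, 4729, 5020.2 and 5437 in 2M-WT, where the ages overlapped. It rose in Acsl6-/- mice (log2 fold change 0.21 ± 0.06 SE, adjusted p = 0.0191), a call lost without 18M-KO replicate 1 (adjusted p = 0.0672), and had a log2 fold change of -0.10 (adjusted p = 0.22) in control mice.

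**Figure D3:**
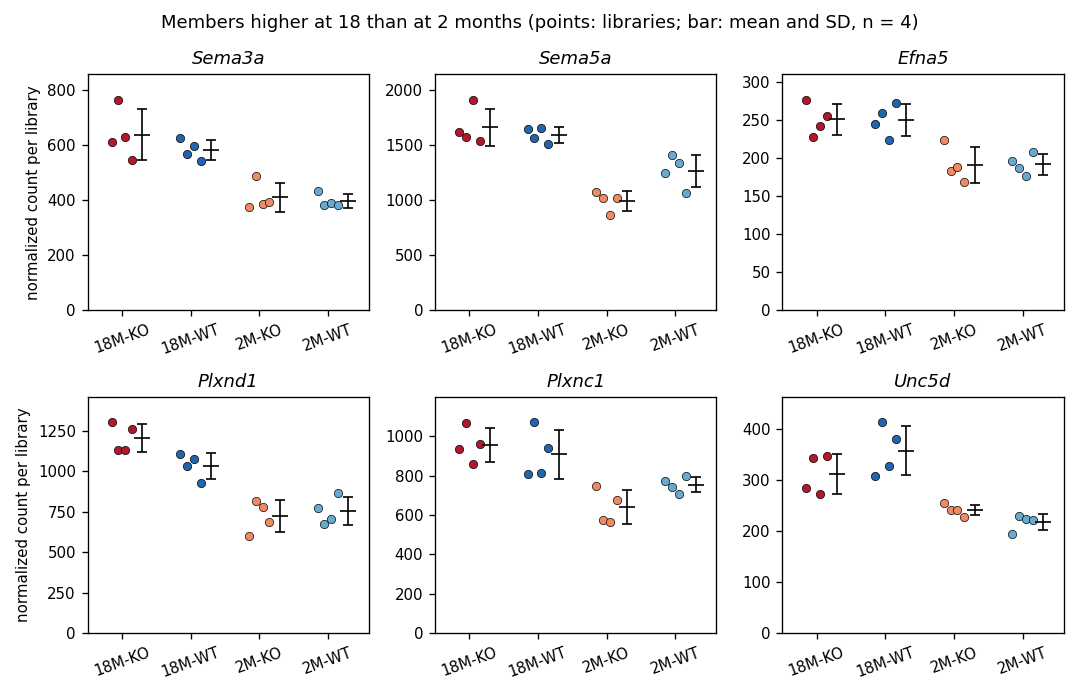
Normalized count per library (points) in each group, with mean and SD (n = 4), for 6 members called higher with age in both genotypes. In Sema3a, Sema5a, Efna5, Plxnd1, Plxnc1 and Unc5d every library of 18 months lies above those of 2 months of its own genotype, as for Sema3a at 546 and above in 18M-KO, against 488 and below in 2M-KO.

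Of the 7 ephrins, Efna5 alone rose in both genotypes. Efna5, a lipid-anchored ligand of EphA receptors (chromosome 17, 62604184 to 62881317 on the minus strand), was at 277, 228, 243 and 256 normalized counts in 18M-KO, against 224, 183, 188 and 168 in 2M-KO. Efna5 in control mice was at 246, 259, 224 and 273 normalized counts in 18M-WT, against 197, 187, 176 and 209 in 2M-WT. The ages did not overlap, and Efna5 rose in both (log2 fold change 0.40 ± 0.09 SE, adjusted p = 0.00497 in Acsl6-/-, and log2 fold change 0.38 ± 0.09 SE, adjusted p = 0.00516 in control mice). Efna2 and Efna1 fell in control mice, with log2 fold changes of -0.52 (adjusted p = 0.00538) and -0.46 (adjusted p = 0.0341), and had a log2 fold change of -0.25 (adjusted p = 0.187) and 0.30 (adjusted p = 0.186) in Acsl6-/- mice. Efna1 was at 111, 89.2, 105 and 94.9 normalized counts in 18M-KO, against 74.3, 101, 74.1 and 76 in 2M-KO. Efna1 in control mice was at 94.8, 79.1, 71.2 and 76.9 normalized counts in 18M-WT, against 130.4, 88.5, 90.6 and 141 in 2M-WT, with overlap in both. Efnb3, the most abundant ephrin, had a log2 fold change of -0.31 (adjusted p = 0.0513) in Acsl6-/- and 0.15, adjusted p = 0.33 in control mice, so it passed in neither.

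The netrin-G ligands are lipid-anchored relatives of netrin that bind adhesion proteins across the synapse. Both fell in Acsl6-/- mice and 1 of the 2 in control mice. Ntng2 (chromosome 2, 29194541 to 29253005 on the minus strand) was at 134, 101, 123 and 121 normalized counts in 18M-KO, against 210.2, 244, 169.8 and 187 in 2M-KO. Ntng2 in control mice was at 143, 123, 145 and 143 normalized counts in 18M-WT, against 230.5, 205, 217 and 215 in 2M-WT. Aged libraries held 0.596 of the young level in Acsl6-/- (log2 fold change -0.75 ± 0.11 SE, adjusted p = 0.000101) and 0.639 in control mice (log2 fold change -0.65 ± 0.11 SE, adjusted p = 0.000243), without overlap. Ntng1 in Acsl6-/- mice was at 382, 347, 448 and 355 normalized counts in 18M-KO, against 481, 546, 537 and 493 in 2M-KO. Ntng1 in control mice was at 486, 445, 431 and 501 normalized counts in 18M-WT, against 490.0, 513, 547 and 446 in 2M-WT. It fell without overlap in Acsl6-/- mice (log2 fold change -0.43 ± 0.08 SE, adjusted p = 0.000995) and had a log2 fold change of -0.10 (adjusted p = 0.392) in control mice. Of the secreted netrins, Ntn1 fell in control mice (log2 fold change -0.22, adjusted p = 0.0168) and had a log2 fold change of -0.09 (adjusted p = 0.334) in Acsl6-/- mice, while Ntn4 passed in neither. No Slit passed either age test, and Slit1 spread widely within groups, with 109, 7.8, 42.2 and 26.1 normalized counts in 18M-KO, against 66.5, 73.2, 28.8 and 33.7 in 2M-KO. Slit1 in control mice was at 33.2, 74.7, 44.4 and 66.8 normalized counts in 18M-WT, against 33.8, 44.3, 28 and 23.5 in 2M-WT, so its ages overlapped in both genotypes. All 3 Slits had a positive log2 fold change in control mice (median 0.71) and 2 of 3 in Acsl6-/- mice (median 0.09).

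Receptors were called in similar numbers to ligands, 12 of 34 in Acsl6-/- mice (5 higher and 7 lower) and 13 of 34 in control mice (6 higher and 7 lower). For ligands the counts were 11 of 34 (6 higher and 5 lower) and 15 of 34 (6 higher and 9 lower). Over all genes the share called was 23.2% in Acsl6-/- mice and 31.3% in control mice. Plxnd1, the receptor of Sema3e (chromosome 6, 115954811 to 115995005 on the minus strand), had the largest rise of a called member in Acsl6-/- mice. Plxnd1 in Acsl6-/- mice was at 1301, 1129, 1131 and 1258 normalized counts in 18M-KO, against 598, 818, 781 and 689 in 2M-KO. Plxnd1 in control mice was at 1107, 1030.4, 1072 and 925 normalized counts in 18M-WT, against 773, 674, 707 and 863 in 2M-WT. The ages stood apart in both genotypes, and aged levels were 1.68-fold higher in Acsl6-/- (log2 fold change 0.75 ± 0.09 SE, adjusted p = 1.62e-05) and 1.37-fold higher in control mice (log2 fold change 0.46 ± 0.09 SE, adjusted p = 0.00102). Its ligand Sema3e passed in neither (log2 fold change 0.18, adjusted p = 0.128 in Acsl6-/- and -0.05, adjusted p = 0.701 in control mice). Plxnc1, the receptor of Sema7a, was at 937, 1065, 859 and 961 normalized counts in 18M-KO, against 745, 576, 566 and 676 in 2M-KO. Plxnc1 in control mice was at 807, 1069.9, 815 and 941 normalized counts in 18M-WT, against 772, 741, 708 and 798 in 2M-WT. It rose in both (log2 fold change 0.58 ± 0.09 SE, adjusted p = 0.000245 in Acsl6-/-, and log2 fold change 0.26 ± 0.09 SE, adjusted p = 0.0448 in control mice).

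The class A plexins, which take up class 3 and class 6 semaphorin signals, did not move as a class. Plxna1, a receptor of Sema6d, fell in both genotypes (log2 fold change -0.33, adjusted p = 0.0225 in Acsl6-/- and -0.41, adjusted p = 0.00456 in control mice). Plxna3 in Acsl6-/- mice was at 1411, 1555, 1159 and 1473 normalized counts in 18M-KO, against 1279.5, 1215, 1294 and 1233 in 2M-KO. Plxna3 in control mice was at 1531, 1627, 1462 and 1348 normalized counts in 18M-WT, against 1139.5, 1215, 1068 and 1463 in 2M-WT. It rose in control mice (log2 fold change 0.30 ± 0.09 SE, adjusted p = 0.0174) with a log2 fold change of 0.15 (adjusted p = 0.252) in Acsl6-/- mice, and the call was lost without 18M-WT replicate 2, 2M-WT replicate 1 or 2M-WT replicate 3 (adjusted p = 0.0555, 0.055 and 0.0677). Plxna4 fell in control mice near the threshold (log2 fold change -0.26, adjusted p = 0.0489), and Plxna2 passed in neither. No class B plexin and no neuropilin was called, and Nrp1, the coreceptor of Sema3a, had a log2 fold change of 0.13 (adjusted p = 0.681) in Acsl6-/- and 0.49 (adjusted p = 0.0713) in control mice.

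Eph receptors that were called with age were nearly all lower. In Acsl6-/- mice 5 of 14 fell and none rose, with a median log2 fold change of -0.21, and in control mice 4 fell and 1 rose, with a median of -0.09. Called or not, 4 of 14 had a positive change in Acsl6-/- mice and 6 of 14 in control mice. Over all genes 11.6% fell and 11.6% rose in Acsl6-/- mice, and 16% fell and 15.3% rose in control mice. Epha8, a receptor of ephrin-A ligands and the most abundant of the family per kilobase (chromosome 4, 136929419 to 136956816 on the minus strand), was at 1269, 1188, 1326 and 1203 normalized counts in 18M-KO, against 1549, 1600.0, 1613 and 1434 in 2M-KO. Epha8 in control mice was at 1014, 1169.9, 948 and 1003 normalized counts in 18M-WT, against 1477, 1508, 1547 and 1432 in 2M-WT. The ages did not overlap, and Epha8 fell in both (log2 fold change -0.31 ± 0.06 SE, adjusted p = 0.000769 in Acsl6-/-, and log2 fold change -0.53 ± 0.06 SE, adjusted p = 3.45e-06 in control mice). Epha7, of the same class, was at 541, 632, 673 and 571 normalized counts in 18M-KO, against 680.3, 777, 758 and 769 in 2M-KO. Epha7 in control mice was at 555, 502, 553 and 556 normalized counts in 18M-WT, against 716, 731, 778 and 681 in 2M-WT. It also fell without overlap, with log2 fold changes of -0.31 (adjusted p = 0.00304) in Acsl6-/- and -0.42 (adjusted p = 0.000147) in control mice. Epha5 fell in Acsl6-/- mice (log2 fold change -0.19, adjusted p = 0.0459) and Epha4 in control mice (log2 fold change -0.25, adjusted p = 0.043).

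Ephb2, a receptor of ephrin-B ligands that acts at excitatory synapses (chromosome 4, 136647539 to 136835988 on the minus strand), fell most among called Eph receptors. Ephb2 in Acsl6-/- mice was at 1061, 869, 1176 and 1105 normalized counts in 18M-KO, against 1553, 1437, 1693 and 1445 in 2M-KO. Ephb2 in control mice was at 1002, 1114, 1217 and 1124 normalized counts in 18M-WT, against 1599, 2000.2, 1863 and 1374 in 2M-WT. Every aged library lay below every young one of its genotype (log2 fold change -0.55 ± 0.10 SE, adjusted p = 0.000864 in Acsl6-/-, and log2 fold change -0.61 ± 0.10 SE, adjusted p = 0.000246 in control mice). Ephb1, of the same class, was at 1004, 842, 1079 and 869 normalized counts in 18M-KO, against 1201, 1185, 1467 and 1261 in 2M-KO. Ephb1 in control mice was at 1043, 952, 1025 and 1055 normalized counts in 18M-WT, against 1116, 1169, 1311 and 973 in 2M-WT. It fell in Acsl6-/- mice (log2 fold change -0.43 ± 0.09 SE, adjusted p = 0.00179), and in control mice it had a log2 fold change of -0.16 (adjusted p = 0.189) with overlapping ages. Ephb4, known from venous endothelium, was at 139, 131, 122 and 135 normalized counts in 18M-KO, against 106, 142, 111 and 101 in 2M-KO. Ephb4 in control mice was at 135, 141, 137 and 129 normalized counts in 18M-WT, against 130.4, 75, 92.6 and 120.2 in 2M-WT. Its control rise (log2 fold change 0.40, adjusted p = 0.0419) was the 1 upward call among Eph receptors, and the ages overlapped. It was lost without any one of 18M-WT replicates 1 to 4, 2M-WT replicates 2 and 3 and 18M-KO replicate 4, with an adjusted p of 0.0501 to 0.153, and the value was 0.25 without 2M-WT replicate 2. The Ephb4 call was also lost with quantile normalization (log2 fold change 0.29, adjusted p = 0.108), with only the 2 groups compared (adjusted p = 0.0718) and with edgeR (adjusted p = 0.0583).

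**Figure D4:**
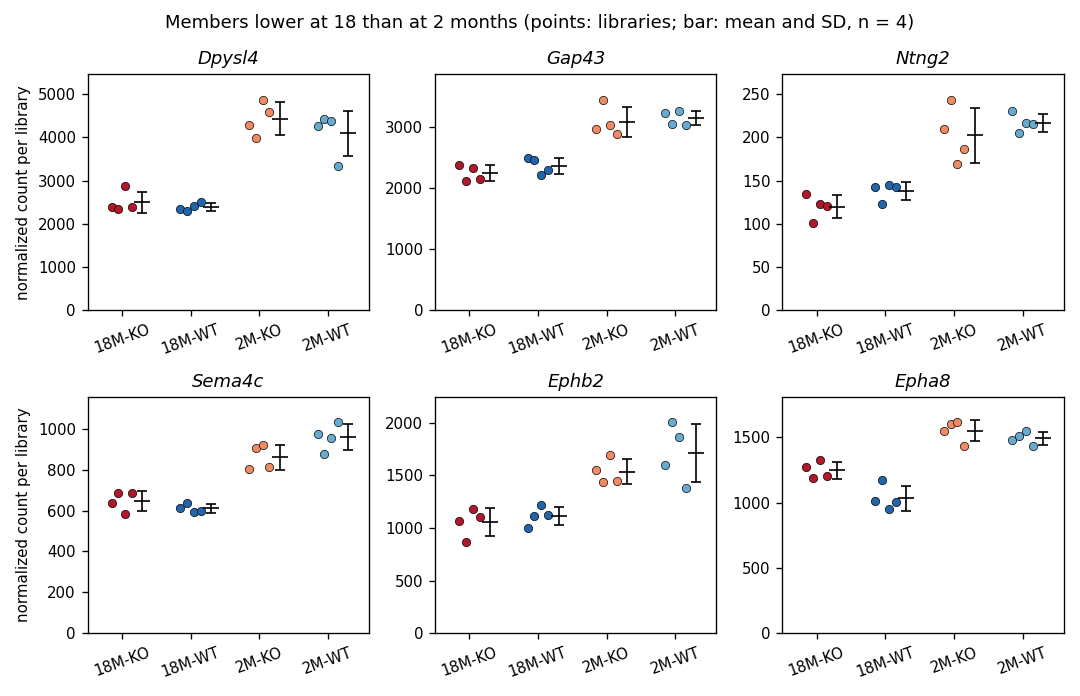
Normalized count per library (points) in each group, with mean and SD (n = 4), for 6 members called lower with age in both genotypes. In Dpysl4, Gap43, Ntng2, Sema4c, Ephb2 and Epha8 every library of 18 months lies below those of 2 months of its own genotype, as for Dpysl4 at 2511 and below in 18M-WT, against 3327 and above in 2M-WT.

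Among netrin and Slit receptors, Unc5d and Robo1 rose in both genotypes and Unc5a fell in both. Unc5d, a netrin receptor that also binds FLRT proteins (chromosome 8, 28646717 to 29219636 on the minus strand), was at 284, 342, 273 and 346 normalized counts in 18M-KO, against 254, 241, 241 and 228 in 2M-KO. Unc5d in control mice was at 307, 412, 328 and 379.7 normalized counts in 18M-WT, against 194, 229, 223 and 222 in 2M-WT. The ages did not overlap (log2 fold change 0.36 ± 0.10 SE, adjusted p = 0.0118 in Acsl6-/-, and log2 fold change 0.71 ± 0.10 SE, adjusted p = 3.7e-05 in control mice), and the control rise was the largest among members called in control mice. Unc5a fell slightly (log2 fold change -0.17, adjusted p = 0.0377 in Acsl6-/- and -0.21, adjusted p = 0.00825 in control mice), and Unc5b, Unc5c and Dcc passed in neither. Robo1, a Slit receptor, was at 686, 562, 706 and 687 normalized counts in 18M-KO, against 606, 551, 509 and 519 in 2M-KO. Robo1 in control mice was at 561, 499.8, 551 and 625 normalized counts in 18M-WT, against 428, 477, 476 and 393 in 2M-WT. It rose by 0.27 in Acsl6-/- (adjusted p = 0.0294) and 0.33 in control mice (adjusted p = 0.00653). Neither call held without the libraries high in Ttr, where the values were 0.25 in Acsl6-/- (adjusted p = 0.0516) and 0.15 in control mice (adjusted p = 0.396). The Acsl6-/- call was also lost without any one of 18M-KO replicates 1, 3 and 4 and 2M-KO replicates 3 and 4, with an adjusted p of 0.0704 to 0.0883, and with the length trend removed (log2 fold change 0.22, adjusted p = 0.0725). Robo4, the endothelial Robo receptor, was at 195, 185, 194 and 207 normalized counts in 18M-KO, against 152, 151, 159.5 and 179.9 in 2M-KO. Robo4 in control mice was at 207, 165, 161 and 156 normalized counts in 18M-WT, against 183, 162, 164 and 187 in 2M-WT. It rose in Acsl6-/- mice (log2 fold change 0.28, adjusted p = 0.0396), with a log2 fold change of -0.02 (adjusted p = 0.886) in control mice, and the call was lost without any one of 18M-KO replicates 1, 3 and 4 and 2M-KO replicates 1, 2 and 3, with an adjusted p of 0.0649 to 0.102. The Robo4 call was also lost with quantile normalization (log2 fold change 0.22, adjusted p = 0.115), with the length trend removed (adjusted p = 0.0517), without the libraries high in Ttr (adjusted p = 0.0699) and with DESeq2 (adjusted p = 0.0518). Robo4 and Ephb4 are endothelial, and of 14 endothelial and mural cell markers 3 rose and 1 fell in each genotype, with sums of 8950 to 10329 in 18M-KO, against 8768 to 10148 in 2M-KO, and 10027 to 10709.6 in 18M-WT, against 9329.6 to 10824 in 2M-WT.

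Of the 6 intracellular proteins, 3 fell in each genotype and none rose. Over all genes the share that fell was 11.6% in Acsl6-/- mice and 16% in control mice. Dpysl4, the CRMP protein with the largest fall of any called member in both genotypes (chromosome 7, 139086001 to 139102704 on the plus strand), was at 2387, 2354, 2867 and 2388 normalized counts in 18M-KO, against 4292, 3983, 4872 and 4579.8 in 2M-KO. Dpysl4 in control mice was at 2344, 2304, 2423 and 2511 normalized counts in 18M-WT, against 4272, 4415, 4379 and 3327 in 2M-WT. All aged libraries lay below all young ones, at 0.564 of the young level in Acsl6-/- (log2 fold change -0.83 ± 0.08 SE, adjusted p = 1.81e-06) and 0.588 in control mice (log2 fold change -0.77 ± 0.08 SE, adjusted p = 2.95e-06). Gap43 (chromosome 16, 42248442 to 42340651 on the minus strand) was at 2374, 2122, 2339 and 2146 normalized counts in 18M-KO, against 2964, 3450.0, 3032 and 2895 in 2M-KO. Gap43 in control mice was at 2494, 2464, 2219 and 2307 normalized counts in 18M-WT, against 3238, 3048, 3261 and 3042 in 2M-WT. It fell to 0.729 of the young level in Acsl6-/- (log2 fold change -0.46 ± 0.06 SE, adjusted p = 1.46e-05) and 0.753 in control mice (log2 fold change -0.41 ± 0.06 SE, adjusted p = 3.17e-05), also without overlap.

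Crmp1 and Dpysl3 were each called in 1 genotype. Crmp1, which carries Sema3a signals to the cytoskeleton, was at 3770.5, 3586, 3805 and 3826 normalized counts in 18M-KO, against 3805, 4139, 4095 and 3947 in 2M-KO. Crmp1 in control mice was at 3409.7, 3555, 3344 and 3343 normalized counts in 18M-WT, against 4122, 3954, 4063 and 4607 in 2M-WT. It fell in control mice (log2 fold change -0.29 ± 0.04 SE, adjusted p = 8.96e-05) and had a log2 fold change of -0.09 (adjusted p = 0.145) in Acsl6-/- mice. Dpysl3 in Acsl6-/- mice was at 356, 279.7, 325 and 308 normalized counts in 18M-KO, against 447, 505, 391 and 386 in 2M-KO. Dpysl3 in control mice was at 361, 292, 349 and 387 normalized counts in 18M-WT, against 368, 406, 361 and 417 in 2M-WT. It fell in Acsl6-/- mice (log2 fold change -0.44 ± 0.10 SE, adjusted p = 0.0034) and had a log2 fold change of -0.16 (adjusted p = 0.224) in control mice. Dpysl2, which encodes CRMP2, had a log2 fold change of 0.06 (adjusted p = 0.472) in Acsl6-/- and 0.07, adjusted p = 0.398 in control mice.

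The start regions of members that moved together with age are shown for 4 genes, those with the largest changes in each direction among the members called in both genotypes whose RefSeq start lay within 100 bases of the annotated gene start. Each is 300 bases from RefSeq on GRCm38.p6, 250 before and 50 from the start site on, written 5′ to 3′ on the gene's strand. Capitals mark GGGCGG on either strand (a GC box, the letters bound by Sp factors). Plxnd1 (chr6:115994956-115995255, minus strand) and Sema5a (chr15:32244563-32244862, plus strand) rose with age.
Plxnd1: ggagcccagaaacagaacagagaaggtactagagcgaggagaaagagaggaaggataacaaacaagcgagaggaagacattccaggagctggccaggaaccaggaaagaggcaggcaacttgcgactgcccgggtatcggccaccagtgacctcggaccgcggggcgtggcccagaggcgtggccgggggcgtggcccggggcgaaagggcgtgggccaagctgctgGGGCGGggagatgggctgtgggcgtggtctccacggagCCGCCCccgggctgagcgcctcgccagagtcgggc
Sema5a: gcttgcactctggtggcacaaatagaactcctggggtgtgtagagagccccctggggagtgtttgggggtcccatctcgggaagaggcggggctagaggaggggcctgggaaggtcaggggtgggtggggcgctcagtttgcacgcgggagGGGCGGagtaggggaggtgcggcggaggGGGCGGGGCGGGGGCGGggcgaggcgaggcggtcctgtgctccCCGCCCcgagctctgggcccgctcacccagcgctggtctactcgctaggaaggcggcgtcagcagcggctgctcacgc
Ephb2 (chr4:136835963-136836262, minus strand) and Sema4c (chr1:36558332-36558631, minus strand) fell with age.
Ephb2: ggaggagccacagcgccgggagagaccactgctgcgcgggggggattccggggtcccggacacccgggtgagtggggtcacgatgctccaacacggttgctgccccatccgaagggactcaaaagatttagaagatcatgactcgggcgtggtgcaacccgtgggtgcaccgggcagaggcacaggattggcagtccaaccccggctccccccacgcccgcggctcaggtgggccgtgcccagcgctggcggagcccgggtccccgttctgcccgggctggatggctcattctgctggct
Sema4c: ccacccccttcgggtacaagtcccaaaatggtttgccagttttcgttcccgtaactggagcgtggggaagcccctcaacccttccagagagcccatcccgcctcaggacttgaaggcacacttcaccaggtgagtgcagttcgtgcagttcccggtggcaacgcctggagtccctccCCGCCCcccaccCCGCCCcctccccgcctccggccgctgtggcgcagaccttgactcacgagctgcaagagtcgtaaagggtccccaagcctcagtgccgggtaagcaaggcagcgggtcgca
Matches were 2 in Plxnd1, 5 in Sema5a, 2 of them overlapping, 0 in Ephb2 and 2 in Sema4c. GC content was 67%, 71.3%, 68.7% and 64.3% in that order, and none held TATAAA on either strand. Of the 60 members with a RefSeq start region, 75% held GGGCGG, against 35.7% of all 32851 start regions, and 3.33% held TATAAA, against 13.6%. These sets are unlike, since each member gave only the start nearest its annotated gene start. The larger set holds every RefSeq start, also several of the same gene. Of the members called in both age comparisons, 9 rose and 11 fell, and Unc5d, Plxna1, Dpysl4 and Gap43 had no RefSeq start region. Among the others GGGCGG was in 5 of 8 that rose and 6 of 8 that fell. No limit on distance was set in these counts. The regions of Sema3a, Robo1 and Ntng2, which lacked GGGCGG, lay 271370, 354843 and 4906 bases from the annotated gene start. These matches are letters in a window and were not set against any measurement of binding.

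In 7 further families the member with the highest level per kilobase gave 1 call with age among them. Efnb3, a ligand of EphB receptors, was at 1222, 868, 1086 and 959 normalized counts in 18M-KO, against 1326, 1449, 1068 and 1281 in 2M-KO. Efnb3 in control mice was at 1106, 925, 1084 and 1369 normalized counts in 18M-WT, against 1076, 924, 986 and 1022 in 2M-WT, so it overlapped across ages there. Slit3 was at 298, 347, 257 and 364 normalized counts in 18M-KO, against 299, 302, 264 and 276 in 2M-KO. Slit3 in control mice was at 327, 377, 386 and 366 normalized counts in 18M-WT, against 276, 325, 343 and 334 in 2M-WT, with a log2 fold change of 0.14 (adjusted p = 0.346) in Acsl6-/- and 0.19 (adjusted p = 0.155) in control mice. Ntn1, the cue read by Dcc and Unc5 receptors, was at 1669, 1409, 1603 and 1597 normalized counts in 18M-KO, against 1835, 1682, 1606 and 1571 in 2M-KO. Ntn1 in control mice was at 1423, 1552, 1651 and 1740.2 normalized counts in 18M-WT, against 1772, 1915, 1758 and 1941 in 2M-WT, without overlap, and this control fall was that call. Among receptors, Plxnb2 was at 3788, 3583, 3720.3 and 3726 normalized counts in 18M-KO, against 3797, 3764, 4174 and 4344 in 2M-KO. Plxnb2 in control mice was at 3488, 3470.1, 3819 and 3628 normalized counts in 18M-WT, against 3813, 4161, 3872 and 3841 in 2M-WT. Nrp2, a coreceptor of class 3 semaphorins, was at 394, 305, 342 and 300.5 normalized counts in 18M-KO, against 332, 364, 329 and 343 in 2M-KO. Nrp2 in control mice was at 351, 282, 276 and 321 normalized counts in 18M-WT, against 275, 288, 257 and 225 in 2M-WT, with a log2 fold change of -0.04 (adjusted p = 0.83) in Acsl6-/- and 0.23 (adjusted p = 0.0762) in control mice. Robo2, the highest Slit receptor per kilobase, was at 609.7, 678, 841 and 602 normalized counts in 18M-KO, against 657, 752, 710.1 and 688 in 2M-KO. Robo2 in control mice was at 559, 704, 634 and 745 normalized counts in 18M-WT, against 738, 681, 683 and 488 in 2M-WT, with a log2 fold change of -0.05 (adjusted p = 0.802) in Acsl6-/- and 0.04 (adjusted p = 0.838) in control mice. Unc5b was at 2371, 2091, 2814 and 2183 normalized counts in 18M-KO, against 2071, 2768, 2415 and 2108 in 2M-KO. Unc5b in control mice was at 2339, 2197, 2446 and 2466 normalized counts in 18M-WT, against 2507, 2367, 2632 and 2084 in 2M-WT, with a log2 fold change of 0.02 (adjusted p = 0.928) in Acsl6-/- and -0.02 (adjusted p = 0.907) in control mice.

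Some members were called with age in 1 genotype and not in the other. In Acsl6-/- mice alone these were 2 that rose (Robo4 and Sema7a) and 4 that fell (Ntng1, Epha5, Ephb1 and Dpysl3). In control mice alone they were 3 that rose (Sema6d, Plxna3 and Ephb4) and 8 that fell (Epha4, Efna1, Crmp1, Plxna4, Sema4f, Efna2, Ntn1 and Sema4d). These are 6 of 74 members in Acsl6-/- mice alone and 11 of 74 in control mice alone. Over all 17042 genes the same counts were 1181 and 2557, so such calls were not particular to the members. The test of the difference itself, the genotype by age interaction, called 0 of 74 members by limma and 0 by edgeR, against 0.0176% of all genes by limma and 0.0176% by edgeR. At an unadjusted p under 0.05 it had 19 members (25.7%), 12 with a higher and 7 with a lower age change in Acsl6-/-, against 10% of all genes. DESeq2 called 1 member, Sema4f (adjusted p = 0.0284), against 0.666% of the 13069 genes to which it gave an adjusted p. By limma, then, none of these age changes was shown to differ between the genotypes.

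The 3 smallest interaction p values were those of Sema4f (log2 difference 0.22, adjusted p = 0.166), Sema7a (log2 difference 0.31, adjusted p = 0.213) and Efna1 (log2 difference 0.76, adjusted p = 0.247), each with the higher age change in Acsl6-/-. By family, 15 of 20 semaphorins had a positive difference, including all 6 of class 4, with a median of 0.13 over the family. This is no separate observation from genotype at 2 months, which enters the difference. There 15 of the 20 semaphorins were negative (median log2 fold change -0.14), against 7 at 18 months (median 0.02). Over all genes, 8757 of 17042 had a positive difference, with a median of 0.01.

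Genotype at 2 months changed 1 member. Sema4f, a transmembrane class 4 semaphorin (chromosome 6, 82911885 to 82939769 on the minus strand), was at 1714, 1729, 1744 and 1639 normalized counts in 2M-KO, against 1985, 1978, 1970.1 and 1961 in 2M-WT. The groups did not overlap, and the 4 control values lay close together. Sema4f was 0.865 of the control level (log2 fold change -0.21 ± 0.04 SE, adjusted p = 0.0232, n = 4 each in a limma fit of all genes). At 18 months Sema4f was at 1742, 1706, 1699 and 1892 normalized counts in 18M-KO, against 1738, 1752, 1771 and 1711 in 18M-WT, with no difference called (log2 fold change 0.01, adjusted p = 0.958). The 2M-WT libraries also enter the age comparison of control mice, in which Sema4f fell (log2 fold change -0.18, adjusted p = 0.00145), while in Acsl6-/- mice it had a log2 fold change of 0.04 (adjusted p = 0.445). The genotype call at 2 months was lost without any one of 2M-KO replicates 2 and 4 and 2M-WT replicates 1, 2 and 3, with an adjusted p of 0.0517 to 0.0899, and without the libraries high in Ttr (adjusted p = 0.189). The log2 fold change was -0.19 to -0.22 without these single libraries and -0.21 without those high in Ttr.

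The call was 1 of 74 members (1.35%), against 0.211% of all genes by limma. edgeR on the recovered reads called Sema4f alone, against 0.2% of all genes. DESeq2 called 5 members, against 1.67% of the 13728 genes to which it gave an adjusted p. By DESeq2 Sema7a (adjusted p = 0.00923), Sema5a (adjusted p = 0.0118) and Plxna4 (adjusted p = 0.0386) were lower in Acsl6-/- together with Sema4f (adjusted p = 0.000181), and Nrp2 (adjusted p = 0.023) was higher. At an unadjusted p under 0.05 limma had 17 members (23%), 6 higher and 11 lower, against 12.1% of all genes.

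Sema7a and Sema5a had the next smallest p values at 2 months and did not pass. Sema7a was at 4275, 4249, 4288 and 4333 normalized counts in 2M-KO, against 5332, 4729, 5020.2 and 5437 in 2M-WT, with log2 fold change -0.26 ± 0.06 SE, adjusted p = 0.0822. The groups did not overlap, and the 4 Acsl6-/- libraries lay close together. Sema5a was at 1075, 1022, 867 and 1016 normalized counts in 2M-KO, against 1245, 1405, 1338 and 1066 in 2M-WT, with log2 fold change -0.34 ± 0.08 SE, adjusted p = 0.0917, with 2M-WT replicate 4 inside the Acsl6-/- range. Without that library the value was -0.42 (adjusted p = 0.0265), and without 18M-WT replicate 2, which only sets the shared spread, Sema7a had an adjusted p of 0.0279. Of the 16 fits that left out 1 library, only 1 passed for each gene. The adjusted p in these fits reached 0.193 for Sema7a and 0.252 for Sema5a. By family, 15 of 20 semaphorins had a negative difference, with a median log2 fold change of -0.14, and 12 of 14 Eph receptors had a positive one, with a median of 0.13. The median was -0.01 over all members and 0.00 over all genes. Oligodendrocyte markers summed to 109563 to 139358 in 2M-KO, against 98868 to 113750 in 2M-WT, and molecular layer interneuron markers to 35399 to 39935 in 2M-KO, against 39550 to 42446 in 2M-WT, with no marker of either list called. Of 12 markers of astrocytes and Bergmann glia, 11 were positive and 1 was called higher. All 12 microglia markers were positive (median log2 fold change 0.25, none called), with sums of 2591 to 3078 in 2M-KO, against 2086 to 2622 in 2M-WT. None of 12 choroid plexus markers was positive (median -1.12, none called), with sums of 3285 to 4177 in 2M-KO, against 2780 to 16940 in 2M-WT. The part of these markers in the members' differences was not tested.

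**Figure D5:**
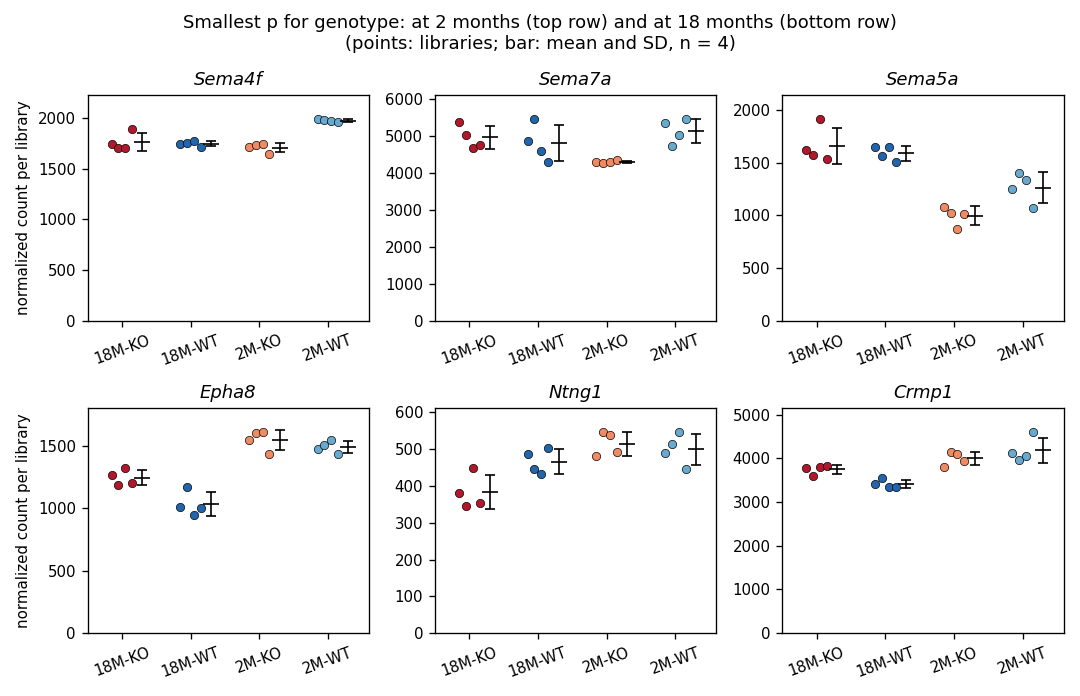
Normalized count per library (points) in each group, with mean and SD (n = 4), for the 3 members with the smallest p for genotype at 2 months (top row) and at 18 months (bottom row). Sema4f, the 1 member called, lies between 1639 and 1744 in 2M-KO, against 1961 to 1985 in 2M-WT.

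Genotype at 18 months changed 0 of 74 members by limma and 0 by edgeR, against 0.241% of all genes by limma and 0.288% by edgeR. DESeq2 called 1 member, Epha8 (adjusted p = 0.00359), against 1.09% of the 15379 genes to which it gave an adjusted p. At an unadjusted p under 0.05 limma had 8 members (10.8%), 6 higher and 2 lower, against 9.15% of all genes. Epha8 was at 1269, 1188, 1326 and 1203 normalized counts in 18M-KO, against 1014, 1169.9, 948 and 1003 in 18M-WT. These groups did not overlap, and the difference (log2 fold change 0.27 ± 0.06 SE, adjusted p = 0.0585) came closest to the threshold. It passed without 18M-WT replicate 2 (0.33, adjusted p = 0.0215), the only 1 of the 16 fits leaving out 1 library in which it did. In those fits the adjusted p reached 0.186. Over all alternatives it reached 0.358, and the lowest log2 fold change was 0.18. Epha8 is one of the members that fell with age in both genotypes, and the same 18M libraries enter those comparisons. Ntng1 was at 382, 347, 448 and 355 normalized counts in 18M-KO, against 486, 445, 431 and 501 in 18M-WT, with log2 fold change -0.29 ± 0.08 SE, adjusted p = 0.201. Crmp1 was at 3770.5, 3586, 3805 and 3826 normalized counts in 18M-KO, against 3409.7, 3555, 3344 and 3343 in 18M-WT, with log2 fold change 0.13 ± 0.04 SE, adjusted p = 0.311, and its groups did not overlap either. All 12 microglia markers were positive at 18 months (median log2 fold change 0.33, none called), with sums of 5670 to 7564 in 18M-KO, against 4734 to 5369 in 18M-WT, without overlap. None of 12 choroid plexus markers was positive (median -0.73, none called), with sums of 3626 to 26413 in 18M-KO, against 3155 to 49581 in 18M-WT, and the part of either list was not tested.

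Guidance genes outside these families were called at about the rate of all genes. Of 78 genes on a list of further ligands, adhesion molecules and intracellular mediators of guidance, 77 had a row. In Acsl6-/- mice 7 of them rose and 12 fell with age (24.7%), and in control mice 10 rose and 14 fell (31.2%). Genotype at 2 months, genotype at 18 months and the interaction called 0 of the 77 by limma, against 0.211%, 0.241% and 0.0176% of all genes. At an unadjusted p under 0.05 they had 12, 6 and 7 of the 77, against 12.1%, 9.15% and 10% of all genes.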

How the data were processed

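Cerebellum RNA was sequenced as poly(A) RNA-Seq in 16 libraries, 4 in each of 4 groups set by the labels. Per the labels and the study's methods, the authors used Trimmomatic 0.36 for trimming, STAR 2.5.2b with the GRCm38 genome for alignment and featureCounts for unique reads per gene. They deposited DESeq2 normalized counts, a signal scaled by 1 size factor per library. The table holds 17074 genes, the lowest with a mean of 9.31, so a filter on low genes came before deposit.

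The deposited signal was analysed in R 4.3.3 with limma 3.58.1 on log2(normalized count + 1), so that fold changes of low genes are understated. The 17042 genes whose mean reached 10 were tested, and 1 linear model held all 4 groups (trend on the mean in eBayes). P values were adjusted by Benjamini-Hochberg over all genes tested and called at an adjusted p under 0.05. Fold changes are 18 months over 2 months, or Acsl6-/- over control. The interaction is the genotype difference at 18 months minus that at 2 months. Every value was a whole multiple of 1 read's worth within 0.001 (100% of values in 16 libraries), so edgeR 4.0.16 and DESeq2 1.42.0 were also run on the recovered reads. No 2 libraries of a group agreed within sampling noise. Gene models were longer in members (median 4976 bases) than over all genes (3179), and the Spearman correlation across genes of fold change with length was 0.02 to 0.10.

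Members and lists were chosen with earlier results of these data known. Members named with all libraries were up to 10 called members per direction in each age comparison by smallest p, the members called and the 3 with the smallest p in each genotype comparison and in the interaction, and the highest of each family per kilobase. Other members named were picked after their values were seen. Promoters were read from the RefSeq table. Alternatives were the pseudocount, the filter, scaling, array weights, a length correction, the count tests, only the groups compared, a replicate block, and leaving out libraries. The fits were tested on simulated data.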

Additional observations from a re-analysis of the deposited data

Results flagged for a closer look

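In 12 of 140 groups of 4 libraries (35 named members in 4 groups), the highest or lowest library stood apart from the others by Dixon's criterion, which chance meets in about 1 group of 20. In 18M-KO these were Dpysl4 in replicate 3 (2867, against 2354 to 2388 in the others), Robo1 in replicate 2 (562, against 686 to 706), Sema4g in replicate 1 (2401, against 2552 to 2582) and Sema6d in replicate 4 (4702, against 4354 to 4391). In 18M-WT these were Epha7 (502, against 553 to 556) and Ntng2 (123, against 143 to 145) in replicate 2, and Robo4 in replicate 1 (207, against 156 to 165). In 2M-KO replicate 2 these were Sema3a (488, against 375 to 392) and Efna1 (101, against 74.1 to 76.0). In 2M-WT these were Dpysl4 in replicate 4 (3327, against 4272 to 4415), Plxnb2 in replicate 2 (4161, against 3813 to 3872) and Sema3a in replicate 1 (433, against 381 to 389.6). The age falls of Dpysl4, Epha7 and Ntng2 and the age rise of Sema3a were called in both genotypes without each library in turn.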

How the results depend on the processing

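With age, 31 members were called in control mice, and 21 to 34 under the alternatives, where the share over all genes was 16.3% to 35.9% (25 to 33 members and 25.8% to 31.7% of all genes without any one library). In Acsl6-/- mice 26 were called, and 24 to 29 under the alternatives, where the share over all genes was 20.7% to 27.7% (21 to 29 members and 18.5% to 23.8% without any one library). For genotype at 2 months the 1 call (0.211% of all genes) became 2 with only the 2 groups compared (0.317%) and 2 with array weights (0.405%). It became 0 with the replicate block (0.182%), 0 without the libraries high in Ttr (0.0763%) and 5 with DESeq2 (1.67%). Without any one library it was 0 to 2, where the share over all genes was 0.0939% to 0.663%. For genotype at 18 months the 0 calls (0.241% of all genes) became 1 with array weights (0.37%) and 1 with DESeq2 (1.09%). Without any one library there were 0 to 1, where the share over all genes was 0.0939% to 0.311%. Shares given for DESeq2 are of the genes to which it gave an adjusted p. For the interaction DESeq2 called 1 (0.666%). The cause was not tested. Of 49 results named for single members, 41 were called, of which 33 kept their call without each of the 16 libraries in turn and 31 under each of the other 12 alternatives, and none reversed. Replicate numbers are shared by the groups but were not taken to pair the libraries, since deviations from the group means correlated at -0.20 to 0.21 over the 24 pairs with a shared number, 4 of them over 0.1, and 4 of 16 libraries correlated best with their own number. With the replicate block 28 members were called with age in control mice (29.5% of all genes) and 27 in Acsl6-/- mice (21.6% of all genes), and Sema4f at 2 months had an adjusted p of 0.0643 and the rise of Ephb4 in control mice 0.0616, the 2 named calls lost under it. A fit on only the libraries with recovered reads was not run, since reads were recovered in all 16. Depth limits the lowest members most, since Robo3 (4.17 to 28.0 normalized counts) and Slit1 (7.8 to 109) rest on few reads.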

Other observations

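Sema3b, a secreted class 3 semaphorin and the lowest semaphorin per kilobase, followed the libraries rather than the groups. It was at 62.9 to 201 normalized counts in the 5 libraries with Ttr above 5000, against 29.3 to 58.6 in the other 11. It was the 1 member of 74 with no overlap between these sets of libraries and was picked after its values were seen, and 37 of 17042 genes (0.217%) were likewise higher in all 5. Sema3b was called in neither age comparison.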
